A study of Homo sapiens with 12 samples.

Results

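UBQLN1 knockout (KO) human embryonic stem cells (hESCs) grown with N-acetylcysteine (NAC) were compared with wild-type (WT) hESCs grown without it, across all genes, to find which differences from WT were still called with NAC, which were called with NAC but not without it, and which were no longer called. The groups were taken from the sample labels and held 2 libraries each, which are 4 of the 8 libraries in the count table and 4 of 12 labelled samples. All cells were of WA26, an established hESC line. The WT cells were untreated and at normal oxygen, the KO cells carried the UBQLN1 knockout and NAC, and the labels of the NAC libraries state no oxygen level. Genotype and treatment both differed, and WT cells with NAC were not analysed here, so the parts of the genotype and of NAC in a difference from WT cannot be told apart. The study describes NAC given over a series of passages, and RNA-seq of its oxygen cultures after a shorter time. The labels used here give no passage or time in culture. Such a difference between the NAC libraries and the untreated ones cannot be told apart from NAC either. Untreated KO cells at normal oxygen (2 libraries) were set beside them, and KO cells at low oxygen (2 libraries) entered only the shared estimate of the spread. The study describes DMSO as the vehicle for NAC while the labels give the untreated cells as untreated, and the dose of NAC is not given in the sources used here. The study describes 2 clones per genotype, but the labels tie no library to a clone and do not say that the libraries came from separate cultures, so p-values measure the spread between these libraries, which may be technical.

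UBQLN1 encodes ubiquilin 1, which binds ubiquitin chains and the proteasome through separate ends of the protein and carries misfolded or misplaced proteins, among them membrane proteins of mitochondria, to degradation. NAC is a cell-permeable source of cysteine, the limiting building block of glutathione, and is used as an antioxidant. hESCs keep themselves undifferentiated through a transcription factor network around OCT4, SOX2 and NANOG together with NODAL and FGF signals, and hold neural and mesodermal genes at low levels.

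Each library held from 31236968 to 41639350 counts, and 15916 of the 28278 genes in the table passed the filter on low counts. Levels are CPM (counts scaled to library size with TMM factors), a gene was called at an adjusted p under 0.05 from edgeR's quasi-likelihood test, and fold changes are on the log2 scale with the standard error (SE) of the fit. The fit had 4 residual degrees of freedom. The NAC libraries differed more from each other than replicates of the other groups, with 146 genes over 2-fold higher in replicate 1 and 135 in replicate 2, against 30 to 54 in the other groups. The markers of hESCs were present in all 6 libraries, with POU5F1 (OCT4) from 110.3 to 194.5 CPM, NANOG from 116.8 to 155.2 CPM and LIN28A from 1189 to 1878 CPM. Between NAC-treated KO and untreated WT, 3271 genes were higher (20.6% of those tested) and 2805 were lower (17.6%). At more than 2-fold and p under 0.05 before adjustment, 398 genes were higher (2.50%) and 589 were lower (3.70%). Untreated KO differed from the same WT libraries at 213 higher genes (1.34%) and 99 lower genes (0.622%), and NAC-treated KO differed from untreated KO at 3785 higher (23.8%) and 3315 lower genes (20.8%).

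**Figure D1:**
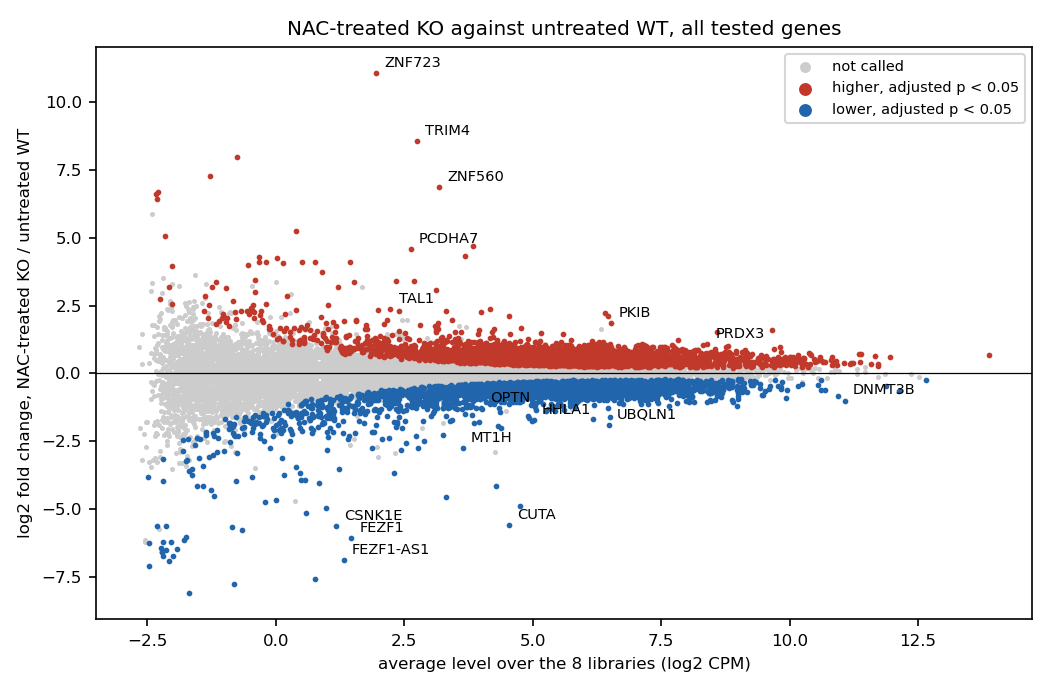
Log2 fold change of NAC-treated KO over untreated WT (vertical axis) against the average level over the 8 libraries in log2 CPM (horizontal axis), 1 point per tested gene, red for the 3271 genes higher and blue for the 2805 genes lower at an adjusted p under 0.05, grey for the rest. ZNF723, TRIM4 and ZNF560 lie highest among the labelled genes and FEZF1-AS1 and FEZF1 lowest, while UBQLN1 lies at -1.90.

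UBQLN1 itself was low in KO cells with NAC. It stood at 221 and 197 CPM in WT, 42.3 and 43.5 CPM in untreated KO and 62.4 and 49.3 CPM in NAC-treated KO, so that no KO library came near WT. The log2 fold change against WT was -1.90 (SE 0.12, adjusted p = 6.6e-06), and NAC-treated KO was above untreated KO by 0.38 (adjusted p = 0.0196). Reads were counted over the whole gene (chromosome 9, 83659968 to 83707958, hg38), so the remaining mRNA says nothing about the protein. Of its relatives, UBQLN2, an X-linked ubiquilin that also serves the proteasome, was at 69.7 and 65.8 CPM in WT, 73.8 and 73.5 CPM in untreated KO and 43.4 and 50.4 CPM with NAC. It fell below WT with NAC by 0.53 on the log2 scale (SE 0.11, adjusted p = 0.0025). UBQLN4 was from 58.9 to 84.6 CPM in the 6 libraries and was not called against WT.

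Of the 312 genes called in untreated KO, 128 were called in the same direction with NAC, 53 of them higher and 75 lower than WT. Both comparisons use the same WT libraries, so a chance deviation of those libraries enters both. Of the 128, 61 lay further from WT with NAC than without, 66 lay closer and 1 had no count in any of these KO libraries, and NAC-treated against untreated KO was itself called for 24 away from WT and for 24 towards it. Among the 53 higher genes, 27 were called without each of the 4 compared libraries in turn and after removal of a trend in transcript length and GC content, and had no copies on alternate-locus scaffolds of hg38. Among the 75 lower genes, 56 were. This stricter set was defined after seeing the data.

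The largest of the higher genes were zinc-finger, protocadherin and ubiquitin-ligase genes that were nearly silent in WT. TRIM4, a RING-type ubiquitin ligase gene on chromosome 7, had 0 and 2 counts in WT, 303 and 313 counts in untreated KO and 549 and 272 counts with NAC. With NAC its level was 433 times that of WT (95% interval of the counts 119 to 3579, exact binomial, counting error only). The fitted log2 fold change of 8.56 was 7.73 without the first WT library and 11.7 without the second, since it rests on those 2 counts. ZNF560, a KRAB zinc-finger gene on chromosome 19, was at 0.0899 and 0.156 CPM in WT, 9.62 and 10.2 CPM in untreated KO and 16.8 and 13.4 CPM with NAC, a log2 fold change of 6.88 (SE 0.29, adjusted p = 6.4e-07). NAC-treated KO was above untreated KO by 0.61 (adjusted p = 0.0175), so the gene lay further from WT with NAC. ZNF723 had no count in either WT library and was at least 174-fold higher with NAC against a floor of 3 counts over the group. ZNF562 was at 0.959 and 0.985 CPM in WT and at 22.03 and 17.34 CPM with NAC. Both are uncertain, since 10% or more of the 31-base stretches of their transcripts recur on alternate-locus scaffolds.

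Clustered protocadherins, cell-surface adhesion proteins by which neurons tell themselves from one another, were higher in 14 and lower in 2 of 50 tested members, which are 28% and 4% against 20.6% and 17.6% of all genes, with a median log2 fold change of 0.66 against 0.02. With the trend removed 16 were higher and none was lower (median 0.73), against 9.40% and 9.55% of all genes. The median was 0.77 in untreated KO, where 5 members were called higher, against 1.34% of all genes. Members share exons or are near copies, so reads may be split between them. PCDHA7 was at 0.420 and 0.363 CPM in WT, 7.37 and 6.68 CPM in untreated KO and 8.64 and 10.4 CPM with NAC, a log2 fold change of 4.59 (SE 0.24, adjusted p = 2.4e-06). PCDHB5 was at 3.78 and 5.55 CPM in WT, 30.7 and 34.5 CPM in untreated KO and 16.2 and 24.3 CPM with NAC. It was thus higher than WT by 2.11 on the log2 scale with NAC and lower than untreated KO by 0.69 (adjusted p = 0.0123), a partial return. PCDHB16 was high in both KO groups but uneven with NAC, at 5.98 and 15.9 CPM, and its log2 fold change of 2.30 became 1.44 without the second NAC library. PCDHB9 was higher by 2.32, a call that was lost without the second WT library (2.05).

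Homeobox genes of the nervous system behaved in more than one way. EN1, a midbrain and spinal cord factor, was at 0.659 and 0.726 CPM in WT, 5.72 and 6.22 CPM in untreated KO and 2.74 and 4.38 CPM with NAC, higher than WT by 2.35 (adjusted p = 0.000185) and lower than untreated KO by 0.75 (adjusted p = 0.0301). SIX6, an eye-field factor, had the same order, with 55.9 and 59.5 CPM in WT, 119 and 140 CPM in untreated KO and 81.6 and 112 CPM with NAC. HMX2, an inner-ear factor, moved the other way, from 1.68 and 1.74 CPM in WT through 3.90 and 4.64 CPM to 6.29 and 7.22 CPM with NAC. PKIB, an inhibitor of protein kinase A, also rose in steps, with 42.1 and 39.7 CPM in WT, 75.9 and 77.7 CPM in untreated KO and 144 and 151 CPM with NAC. Its log2 fold change was 1.85 (SE 0.10, adjusted p = 2.4e-06) and 1.04 with the trend removed. NQO1, a quinone reductase and a target of the oxidative-stress factor NRF2, was at 55.2 and 54.6 CPM in WT, 88.0 and 95.0 CPM in untreated KO and 85.2 and 90.0 CPM with NAC. It was higher than WT by 0.67 with NAC (SE 0.11, adjusted p = 0.000586), and NAC-treated against untreated KO was not called (-0.06, adjusted p = 0.660). TCEAL5, an X-linked gene, was 2.51 higher with NAC, and SEMG1, a semenogelin gene, was 1.93 higher. The value of TCEAL5 became 3.52 without the first WT library and 1.85 without the second.

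The genes lower than WT with and without NAC held neural genes among the largest. FEZF1, a forebrain zinc-finger factor, was at 7.43 and 8.45 CPM in WT, 1.14 and 1.26 CPM in untreated KO and had 8 and 0 counts with NAC, 68.1 times lower than WT by the summed counts (95% interval 34.3 to 158). Its antisense transcript FEZF1-AS1 went the same way, with 216 and 326 counts in WT, 41 and 51 in untreated KO and 0 and 4 with NAC. Counting ignored strand, so where the genes overlap a read of either may have been left uncounted or counted for the other. NAC-treated KO was below untreated KO for both (log2 fold changes -3.35 and -4.23, adjusted p = 0.000842 and 0.000267). Because 1 NAC library had no count in each case, the fitted fold against WT moved widely with the library left out, from -11.17 to -5.23 for FEZF1 and from -11.12 to -5.77 for FEZF1-AS1. STMN2, a microtubule-binding protein of growing neurites, was at 16.5 and 15.3 CPM in WT, 4.91 and 4.81 CPM in untreated KO and 3.21 and 1.40 CPM with NAC (log2 fold change -2.76, adjusted p = 0.000107, and -3.50 without the first NAC library).

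OPTN, a receptor that binds ubiquitinated cargo for autophagy of damaged mitochondria, was at 32.1 and 30.8 CPM in WT, 9.62 and 10.2 CPM in untreated KO and 16.4 and 9.52 CPM with NAC. It stayed below WT by 1.27 on the log2 scale (adjusted p = 0.000698), and the rise from untreated KO was not called (0.40, adjusted p = 0.145). TYW1B, a homolog of a wybutosine tRNA-modification enzyme, was at 9.05 and 10.6 CPM in WT and between 1.44 and 2.11 CPM in all 4 KO libraries, so NAC made no detectable difference. VAT1L was likewise low in both KO groups, with a log2 fold change of -2.51 against WT that became -3.38 without the second NAC library. IRS4, an adaptor of insulin-receptor signalling, fell in steps, with 13.8 and 14.4 CPM in WT, 5.31 and 5.83 CPM in untreated KO and 3.47 and 2.14 CPM with NAC. KDR, the VEGF receptor of endothelial progenitors, was at 116 and 121 CPM in WT, 67.8 and 67.7 CPM in untreated KO and 81.4 and 71.8 CPM with NAC, lower by 0.63 (adjusted p = 0.000552). LDHD, the D-lactate dehydrogenase of mitochondria, was 2.43 lower, CCDC3 2.43 lower, TEX13B 3.53 lower and the transcript LOC101928595 4.58 lower than WT with NAC. The value of LOC101928595 became -5.72 without the second NAC library.

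**Figure D2:**
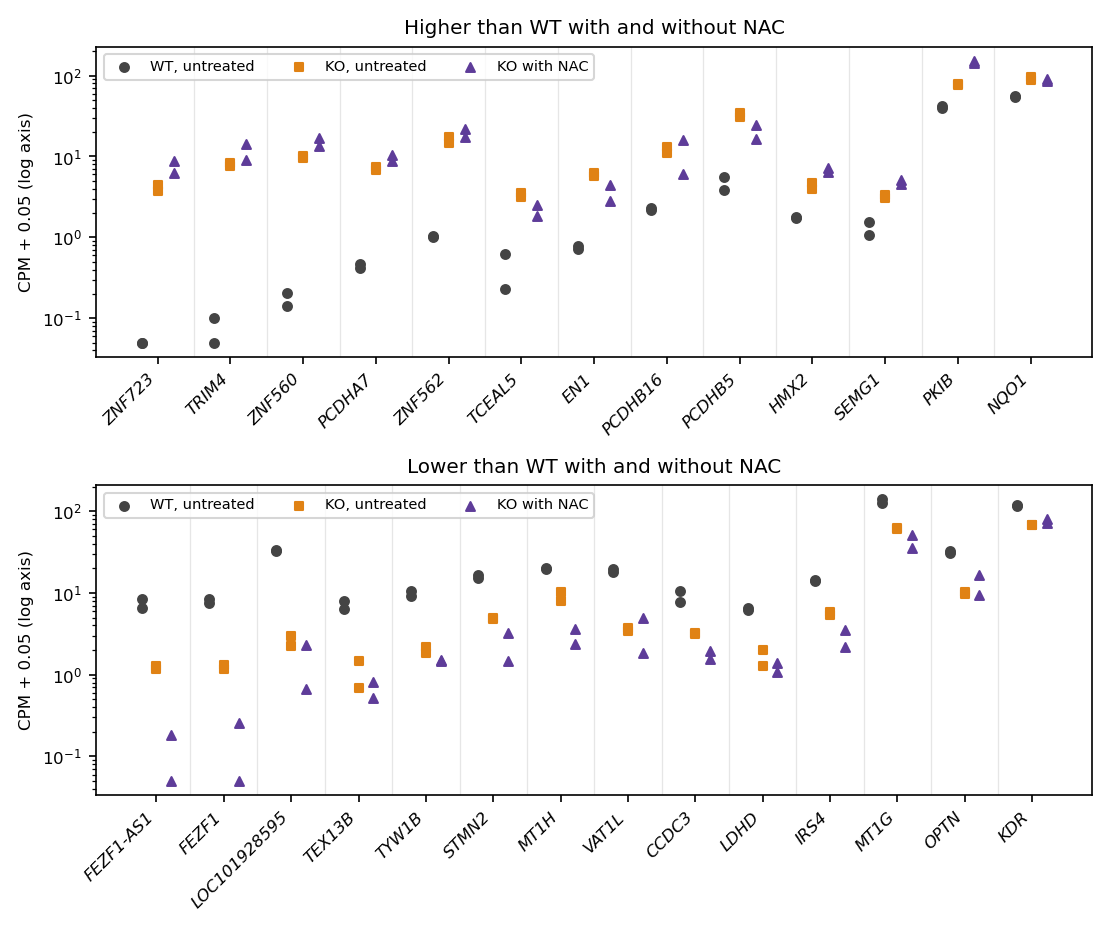
CPM plus 0.05 on a log axis for genes higher (upper panel) or lower (lower panel) than WT both with and without NAC, 1 point per library, circles for untreated WT, squares for untreated KO and triangles for KO with NAC. TRIM4, ZNF560 and PCDHA7 stay far above WT in all 4 KO libraries, EN1 and PCDHB5 lie between WT and untreated KO with NAC, and FEZF1, FEZF1-AS1 and MT1H lie further from WT with NAC than without.

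Metallothioneins are small cysteine-rich proteins that bind zinc and copper and are induced by metals through the factor MTF1. With NAC 6 of 7 members were lower than WT, against 17.6% of all genes. Their median log2 fold change was -1.39 (all genes 0.02). After removal of the length and GC trend the median was -1.61 and all 7 were lower, against 9.55% of all genes. In untreated KO 4 of the 7 were lower, against 0.622% of all genes, with a median of -0.66. The WT and NAC groups did not overlap for 65.6% of all tested genes. MT1H was at 19.7 and 20.4 CPM in WT, 7.89 and 10.1 CPM in untreated KO and 3.55 and 2.34 CPM with NAC, so that its 3 groups did not overlap. Its log2 fold change against WT was -2.76 (SE 0.21, adjusted p = 3.0e-05), and NAC-treated KO was below untreated KO by a further step of -1.60 (adjusted p = 0.000105). MT1G was at 139 and 128 CPM in WT, 62.7 and 60.8 CPM in untreated KO and 51.4 and 35.8 CPM with NAC. MT1E, MT1F, MT1M and MT2A, the last with uncertain counts, were lower with NAC by 1.39, 0.77, 2.30 and 0.85 on the log2 scale. The value of MT1M became -3.35 without the first NAC library. MT1X was the exception, at 169 and 158 CPM in WT, 102 and 131 CPM in untreated KO and 146 and 154 CPM with NAC (-0.13, adjusted p = 0.414).

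The promoters of MT1H, the member with the largest fall, and of MT1X, the one not called, are shown to set the 2 side by side. They are the 250 bases before the RefSeq start site on the plus strand of chromosome 16 (GRCh38.p14), chr16:56669564-56669813 and chr16:56682220-56682469. Capitals mark every match of the core of the metal response element, TGCACNC or TGCGCNC, on either strand, and matches may overlap.
MT1H: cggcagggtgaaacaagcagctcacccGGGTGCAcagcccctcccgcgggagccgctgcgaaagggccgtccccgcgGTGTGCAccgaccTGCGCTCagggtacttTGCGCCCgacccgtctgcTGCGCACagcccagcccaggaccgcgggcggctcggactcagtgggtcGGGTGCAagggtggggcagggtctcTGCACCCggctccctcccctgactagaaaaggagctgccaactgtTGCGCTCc
MT1X: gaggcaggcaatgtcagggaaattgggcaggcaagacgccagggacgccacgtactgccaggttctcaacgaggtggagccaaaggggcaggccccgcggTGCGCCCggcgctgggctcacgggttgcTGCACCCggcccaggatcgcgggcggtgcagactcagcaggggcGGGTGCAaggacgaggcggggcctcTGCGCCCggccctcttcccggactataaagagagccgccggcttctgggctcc
MT1H held 8 matches and MT1X held 4, and such a core stands in 24.8% of 35116 RefSeq promoters of this length. RefSeq promoters were found for 3 of the 7 metallothioneins and all 3 held a match. A match is a description of the letters and not a shown binding site.

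Of the genes called against WT with NAC, 2824 higher and 2227 lower genes were not called in untreated KO and also differed between NAC-treated and untreated KO in the same direction. Both of these comparisons use the same NAC libraries, so a chance deviation of those libraries enters both, and the second is no separate support. Over all tested genes with a known length and GC content, the differences from WT with NAC followed the base composition of the transcripts. The median log2 fold change against WT was 0.65 for transcripts under 35% GC and -0.43 for those over 65%, and Spearman's rho over 15494 genes, which are not independent replicates, was -0.48 with GC content and -0.17 with length. In untreated KO the medians were -0.11 and 0.10. With a smooth trend on length and GC content removed from each library, 1456 genes were higher (9.40%) and 1479 lower (9.55%) than WT, and 1085 higher and 974 lower genes were called with NAC but not without, of which 768 and 655 were among those above. Whether the trend is technical or belongs to the cells was not tested. Counts of called list members below stand against 20.6% higher and 17.6% lower among all genes, and against 9.40% and 9.55% with the trend removed. By the stricter set defined above, 611 higher and 662 lower genes remained among those that appeared with NAC.

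**Figure D3:**
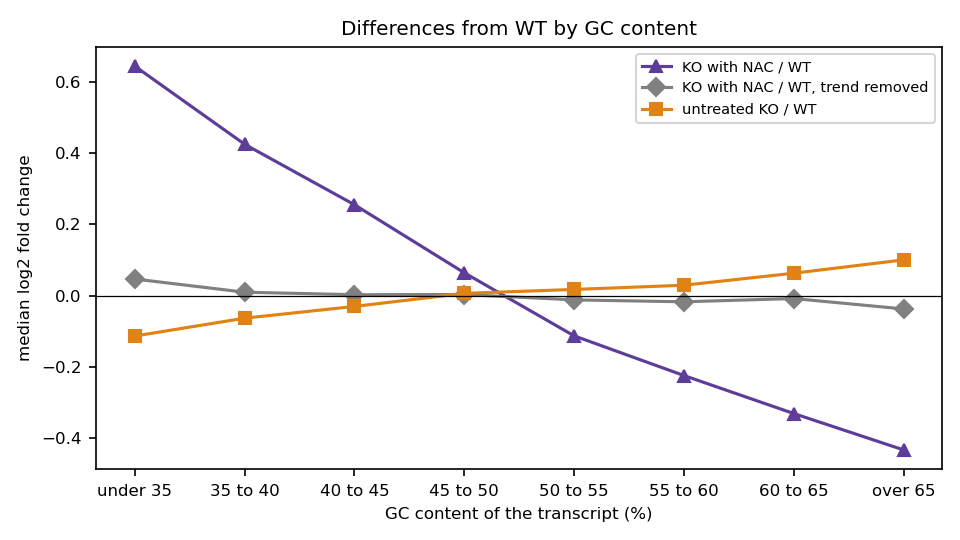
Median log2 fold change against untreated WT (vertical axis) for genes grouped by the GC content of the transcript in percent (horizontal axis), with 206 to 3160 genes a group. Triangles (NAC-treated KO) fall from 0.65 to -0.43, diamonds (the same with the trend removed) lie between -0.04 and 0.05, and squares (untreated KO) rise from -0.11 to 0.10.

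Subunits of the mitochondrial respiratory chain and ATP synthase, which make ATP with oxygen, were above WT with NAC. Of 76 tested nuclear-encoded subunits, 55 were higher and 1 was lower, with a median log2 fold change of 0.48, against 20.6% and 17.6% of all genes, and 70 had positive values. In untreated KO none of the 76 was called, where only 1.34% of all genes were higher and 0.622% lower. The medians there ran from -0.14 for complex I to -0.24 for the ATP synthase. With the trend removed, 28 were higher and 2 were lower, with a median of 0.16, against 9.40% and 9.55% of all genes. By complex, 25 of 37 subunits of complex I, 3 of 4 of complex II, 8 of 9 of complex III, 9 of 11 of complex IV and 10 of 15 of the ATP synthase were higher, and with the trend removed 16, 0, 4, 4 and 4 were. NDUFS5, an accessory subunit of complex I, was at 200 and 202 CPM in WT, 201 and 186 CPM in untreated KO and 370 and 346 CPM with NAC (log2 fold change 0.83, SE 0.08, adjusted p = 7.5e-05, and 0.50 with the trend removed). COX6A1 of complex IV was at 282 and 362 CPM in WT, 230 and 248 CPM in untreated KO and 498 and 694 CPM with NAC, and was higher by 0.89 and, with the trend removed, by 0.71. UQCRC2, a core protein of complex III, was higher by 0.69 and then 0.24. ATP5PO, in the stalk of the ATP synthase, was higher by 0.78 and then 0.33, while ATP5MG went from 0.58 to -0.20 (adjusted p = 0.186). SDHD, a membrane anchor of complex II, went from 0.70 to -0.0026 (adjusted p = 0.985). The other subunits with the largest changes were NDUFB9 of complex I (0.98, then 0.78), SDHC and SDHB (0.48 and 0.48, then 0.099 and 0.0091), UQCRB and UQCR10 (0.52 and 0.50, then 0.41 and 0.090), COX6C and COX7A2 (0.97 and 0.80, then 0.23 and 0.42) and ATP5PB (0.72, then 0.20). Without the trend, those still called were NDUFB9, UQCRB and COX7A2. The transcript length used for UQCRB was 8459 bases, against a median of 3231 for tested genes, and its corrected value depends on that length. NDUFA3, with uncertain counts, was higher by 2.31, and neither it (1.69) nor NDUFB9 (0.78) was called without the first WT library. Without the second WT library NDUFA3 stood at 3.46 and UQCR10 lost its call (0.47).

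The machines of protein synthesis and breakdown were also above WT. Of 83 cytosolic ribosomal proteins 63 were higher and none was lower (median 0.42), of 77 mitochondrial ribosomal proteins 51 were higher and none was lower (median 0.43), and of 31 proteasome subunits 22 were higher and none was lower (median 0.50). With the trend removed the medians were 0.15, 0.13 and 0.14, and 26, 10 and 10 members were higher while 4, 0 and 2 were lower. PSMD14, the deubiquitinase of the proteasome lid, was at 122 and 111 CPM in WT, 115 and 105 CPM in untreated KO and 229 and 209 CPM with NAC, higher by 0.91 and with the trend removed by 0.36 (adjusted p = 0.0104). MRPL42 of the mitochondrial ribosome was higher by 0.81 and kept 0.80 with the trend removed. The transcript length used for MRPL42 was 15557 bases, against a median of 3231 for tested genes, and the corrected value depends on it. RPL11, which also binds the p53 regulator MDM2, was higher by 0.88 and then 0.50. PSMA3 of the proteasome core, RPL31 and MRPL1 were higher by 0.96, 0.96 and 0.99 but by 0.22, 0.25 and 0.12 without the trend, where none was called, and MRPL13 went from 1.04 to 0.31. PSMB3 and RPS18, both uncertain for copies on alternate loci, were higher by 2.24 and 1.58. Without the first WT library they stood at 4.93 and 0.95, and without the second at 1.31 and 2.70. PSMB3 was not called without the first NAC library (1.70) or with the trend removed (1.98). HSPA8, the constitutive HSP70 chaperone, was at 2688 and 2654 CPM in WT, 2722 and 2653 CPM in untreated KO and 3825 and 4475 CPM with NAC, higher by 0.64 and then 0.34. HSPE1, the chaperonin partner of mitochondria, went from 0.62 to -0.15, and HSPA1B, an inducible HSP70 with uncertain counts, was lower by 0.72, a call lost without the first WT library (-0.48), without either NAC library (-0.72 and -0.72) and with the trend removed (-0.52). Of 16 heat shock proteins 6 were higher and 1 lower (median 0.19), but 1 and 1 with the trend removed (-0.01).

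Among genes of peroxide removal, 7 of 15 peroxiredoxin, thioredoxin and superoxide genes were higher and none was lower, and their median was 0.33 (0.21 without the trend). PRDX3, the peroxiredoxin of the mitochondrial matrix, was at 267 and 246 CPM in WT, 233 and 239 CPM in untreated KO and 535 and 554 CPM with NAC, above all other libraries. It was higher than WT by 1.08 (SE 0.09, adjusted p = 3.3e-05) and with the trend removed by 0.44 (adjusted p = 0.00293). PRDX4, the peroxiredoxin of the endoplasmic reticulum, was higher by 0.72 and then 0.42, and TXN, thioredoxin, went from 0.65 to -0.26 (adjusted p = 0.0834). The glutathione and cystine genes had 3 of 14 higher and 1 lower (median 0.24), close to the shares of all genes, and 1 higher and 3 lower with the trend removed (median 0.10). GCLC, the catalytic subunit of the rate-limiting enzyme of glutathione synthesis, was at 56.7 and 49.7 CPM in WT and 38.0 and 44.7 CPM with NAC (-0.37, adjusted p = 0.0219), a call lost without the first WT library (-0.27) or without the first NAC library (-0.25). NRF2 targets had 4 of 16 higher and 3 lower, with a median of 0.01, also close to those shares, and 2 and 2 with the trend removed (0.09). GPX8 and GSR, of glutathione use and recycling, were higher by 0.53 and 0.29, neither called without the trend. ME1, malic enzyme, was higher by 0.66, and HMOX1, heme oxygenase, was lower by 0.44. Without the trend ME1 (0.21) and HMOX1 (-0.41) were not called. The call of ME1 was also lost without the first WT library (0.58), and those of GSR and HMOX1 without either WT library (0.26 and 0.28 for GSR, -0.55 and -0.37 for HMOX1) or without the first NAC library (0.12 and -0.26).

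Targets of the hypoxia-inducible factors (HIF), which carry the response to low oxygen, were higher in 11 of 24 and lower in none, and their median was 0.55 (6 of 24 and 0.30 without the trend). SLC2A1, the glucose transporter GLUT1, was at 198 and 208 CPM in WT, 218 and 228 CPM in untreated KO and 445 and 361 CPM with NAC. Its log2 fold change of 0.99 (SE 0.10, adjusted p = 8.6e-05) became 1.14 with the trend removed. P4HA1, a collagen prolyl hydroxylase, was at 43.6 and 39.7 CPM in WT, 36.5 and 38.3 CPM in untreated KO and 116 and 73.3 CPM with NAC, higher by 1.19 and then 0.69 (adjusted p = 0.0149). FAM162A, a mitochondrial protein of the hypoxia response, was at 39.4 and 44.8 CPM in WT and at 82.1 and 81.7 CPM with NAC. Several targets stood out in 1 NAC library, the first. DDIT4, an inhibitor of mTORC1, was at 163 CPM there and at 15.2 CPM in the second, against 27.9 and 30.2 CPM in WT, and was not called. LOX, a collagen cross-linking enzyme, was at 9.06 and 1.90 CPM, and its log2 fold change of 1.78 was 0.25 without that library (adjusted p = 0.602), and it was not called without either WT library. Glycolytic enzymes were split, with 5 of 17 higher, among them PGK1 and LDHA at 0.67 and 0.58, and 5 lower, among them ALDOA at -0.73 (median -0.15). After removal of the trend 3 were higher and 2 lower (-0.10), and LDHA was not called (0.12, adjusted p = 0.434).

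The promoter of P4HA1, the target with the largest change among those called without each library, is shown as the 250 bases before its RefSeq start site on the minus strand (GRCh38.p14), chr10:73096867-73097116, written 5′ to 3′ along the gene. Capitals mark the core of the hypoxia response element, ACGTG or GCGTG, on either strand.
P4HA1: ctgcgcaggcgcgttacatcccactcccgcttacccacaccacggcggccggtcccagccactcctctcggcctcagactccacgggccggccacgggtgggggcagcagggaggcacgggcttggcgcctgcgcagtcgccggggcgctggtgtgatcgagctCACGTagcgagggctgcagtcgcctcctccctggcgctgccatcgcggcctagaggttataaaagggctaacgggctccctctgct
The window held 1 match. Promoters were found for 20 of the 24 HIF targets, and 78.1% of their 32 windows held a match, against 43.2% of all 35116.

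Sterol synthesis genes were above WT in 13 of 21 members with NAC and below in 2, with a median of 0.45, and with the trend removed 13 were still higher and 1 was lower (median 0.38). In untreated KO none was called (median 0.02), where only 1.34% of all genes were higher and 0.622% lower. SC5D, sterol-C5-desaturase, was at 143 and 132 CPM in WT, 150 and 141 CPM in untreated KO and 262 and 273 CPM with NAC, higher by 0.96 (SE 0.09, adjusted p = 5.9e-05) and then 0.67. IDI1, isopentenyl-diphosphate isomerase, was at 114 and 110 CPM in WT, 104 and 99.9 CPM in untreated KO and 237 and 215 CPM with NAC, higher by 1.02 and then 0.43. HSD17B7 was higher by 0.99 and then 0.66. SREBF2, which encodes the factor that switches the pathway on, was lower by 0.32 and not called with the trend removed.

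Among single genes called higher with NAC and not called in untreated KO was IL6ST, the signalling receptor gp130 of the IL-6 family. IL6ST was at 9.17 and 10.1 CPM in WT, 11.6 and 11 CPM in untreated KO and 34.8 and 23.2 CPM with NAC. Its log2 fold change was 1.59 (SE 0.18, adjusted p = 0.000131) and 1.38 with the trend removed. TAL1, a blood and spinal-cord factor, rose in steps, with 1.56 and 1.63 CPM in WT, 3.82 and 4.15 CPM in untreated KO and 5.64 and 10.99 CPM with NAC. It was higher than WT by 2.37 with NAC, and in untreated KO it was higher by 1.32 and just missed the call (adjusted p = 0.0515). SLC38A4, an amino acid transporter, ANXA3, an annexin, GPM6A, a neuronal membrane glycoprotein, and NTS, the peptide neurotensin, were higher by 1.65, 1.65, 1.54 and 1.68 and with the trend removed by 1.20, 1.02, 0.88 and 0.69. YAF2, of a Polycomb complex, ZNF800 and RNASE4 were higher by 1.92, 1.76 and 1.62, and by 1.32, 1.39 and 1.19 without the trend. Of the 10 largest higher genes, NEAT1, a nuclear noncoding RNA, was at 16.3 CPM in the first NAC library and between 0.777 and 1.03 CPM in the other 5 libraries, and its log2 fold change of 3.36 was 0.24 without that library and was not called without either WT library. RRN3, whose counts are uncertain for copies on alternate-locus scaffolds, was at 16.2 CPM in the second NAC library alone, and its 3.39 was 0.36 without it and was not called without either WT library.

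Factors of the undifferentiated state moved below WT with NAC more often than above. Of 20 pluripotency factors, 12 were lower and 2 were higher, with a median of -0.40, and with the trend removed 8 were lower and none was higher (median -0.25). In untreated KO none of the 20 was called (median 0.03), where only 1.34% of all genes were higher and 0.622% lower. DNMT3B, the de novo DNA methyltransferase of hESCs, was at 2617 and 2517 CPM in WT, 2553 and 2455 CPM in untreated KO and 1136 and 1418 CPM with NAC, so that only the NAC libraries were low. The log2 fold change was -1.01 (SE 0.10, adjusted p = 7.5e-05) and -0.75 with the trend removed. SOX2 was at 334 and 315 CPM in WT and 224 and 267 CPM with NAC (-0.40, adjusted p = 0.00811, and -0.36 and not called without the first WT library), while POU5F1 and NANOG, whose counts are uncertain for such copies, were not called (-0.28 and -0.11). TFCP2L1, a factor of the naive state, ZIC2 and UTF1 were lower by 0.97, 0.62 and 0.65, and ZFP42 (REX1) and DPPA4 were higher by 0.52 and 0.53, of which neither was called with the trend removed. UTF1 was not called then (-0.24) or without the first WT library (-0.57).

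Genes of NODAL signalling, which holds hESCs undifferentiated and later patterns mesoderm and endoderm, were lower in 6 of 9 members and higher in none, with a median of -0.64, and 6 were lower with the trend removed (median -0.52). ACVR2B, an activin and NODAL receptor, was at 139 and 136 CPM in WT, 141 and 142 CPM in untreated KO and 78.9 and 76.8 CPM with NAC (-0.82, SE 0.08, adjusted p = 7.5e-05). LEFTY1, a secreted NODAL inhibitor, was lower by 1.30. Wnt targets had 6 of 12 lower and 1 higher (median -0.51), but 1 and 1 with the trend removed (-0.11). In untreated KO 2 were higher and 0 lower (median 0.26), against 1.34% and 0.622% of all genes. The largest with NAC was SP5, with 4 counts in WT, 47 in untreated KO and 32 with NAC over the libraries. SP5 was called higher in untreated KO too (3.36, adjusted p = 0.0343), and NAC-treated against untreated KO was not called (-0.35, adjusted p = 0.641). NOTUM and NKD1 followed, lower by 1.09 and 0.80 and not called without the trend (-0.74 and -0.23). Calls were lost without the first WT library for NOTUM (-1.27) and NKD1 (-0.57), without the second for NOTUM (-0.91) and SP5 (2.88) and without the second NAC library for NOTUM (-0.97). Among them AXIN2, a feedback inhibitor of the pathway, was lower by 0.62 and then 0.40 (adjusted p = 0.0109). Of 14 FGF feedback genes 1 was higher and 6 lower (median -0.24), and 2 and 4 with the trend removed (-0.20). Among them DUSP6, a phosphatase of ERK, was higher by 0.68, while ETV4 and ETV5 were lower by 0.43 and 0.37, calls lost with the trend removed for ETV4 (-0.20) and without the first WT library for ETV5 (-0.33).

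**Figure D4:**
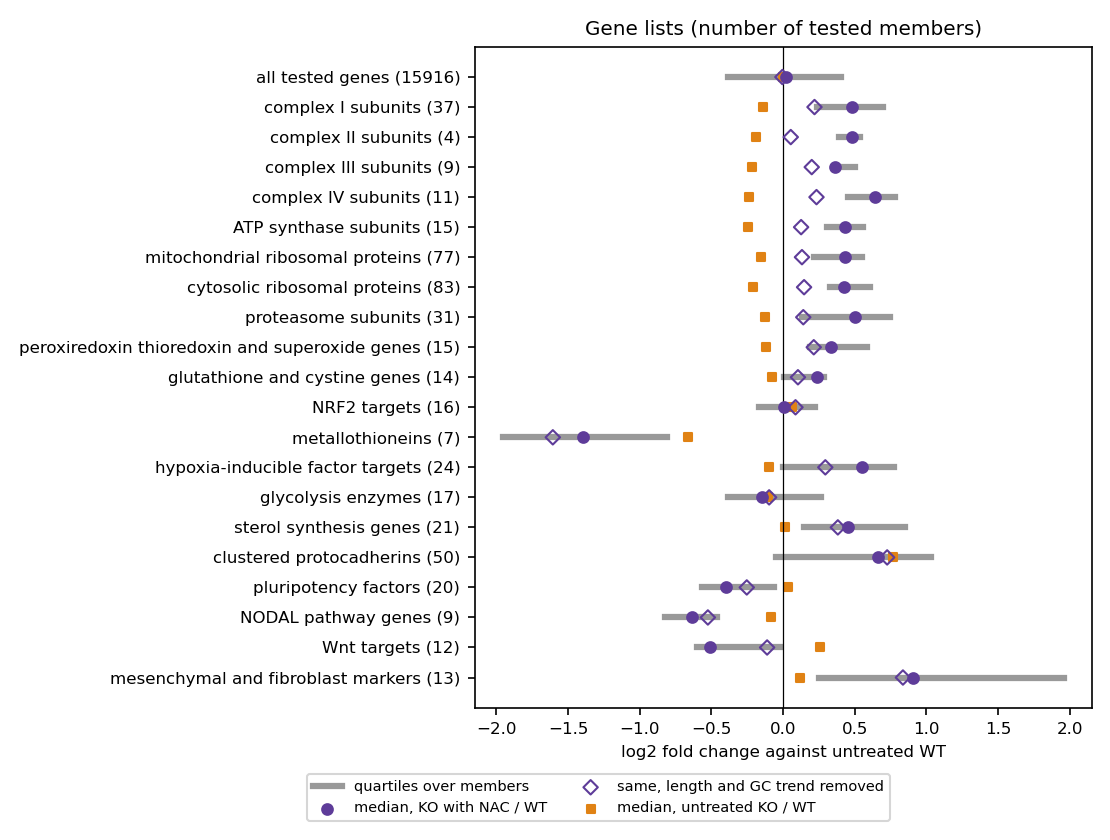
Median log2 fold change against untreated WT (horizontal axis) for gene lists (vertical axis, number of tested members in brackets), filled circles for NAC-treated KO, open diamonds for the same after removal of the length and GC trend, squares for untreated KO and grey bars for the quartiles of the members in NAC-treated KO. Metallothioneins lie farthest to the left, the respiratory complexes lie above 0 with NAC and below 0 in untreated KO, and their diamonds lie closer to 0.

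Other genes called lower with NAC and not called in untreated KO included receptors and neural proteins. DACT1, an inhibitor of Wnt signalling, was at 10.6 and 8.37 CPM in WT, 5.15 and 5.44 CPM in untreated KO and 1.20 and 1.44 CPM with NAC (-2.85, SE 0.24, adjusted p = 5.2e-05). In untreated KO DACT1 was already below WT, at -0.84 (SE 0.22), and missed the call (adjusted p = 0.0745). PTH1R, the parathyroid hormone receptor, was at 8.75 and 9.90 CPM in WT, 7.64 and 6.92 CPM in untreated KO and 1.10 and 2.07 CPM with NAC. TEK, the angiopoietin receptor TIE2, was lower by 2.37, a value of -3.16 without the first NAC library. FRMPD3, CEND1, NACAD, TPPP and ANKRD24 were lower by 2.38, 2.19, 2.18, 2.17 and 2.03, and by 1.78, 1.93, 1.62, 1.62 and 1.54 without the trend. TPPP was at -2.82 without the first NAC library and CEND1 at -2.80 without the second. PINK1, the kinase that marks damaged mitochondria for autophagy, was at 16.2 and 17.1 CPM in WT, 11.2 and 13.3 CPM in untreated KO and 6.81 and 6.58 CPM with NAC (-1.32, adjusted p = 0.000260, and -1.10 with the trend removed). In untreated KO PINK1 stood at -0.45 and was not called (adjusted p = 0.199). Of 22 autophagy genes including PINK1 and OPTN, 10 were higher and 3 lower, and with the trend removed 4 were higher and 2 lower. ATG12, which is joined to ATG5 when autophagosomes form, was higher by 0.95 and then 0.41. PHLDA3, a p53 target that restrains AKT, was lower by 1.06. CSNK1E fell from 96 and 183 counts in WT and 179 and 170 in untreated KO to 3 and 2 with NAC. A readthrough transcript overlaps it, so reads of CSNK1E may have been left uncounted in any of the libraries. Whether this has a part in the difference was not tested. CUTA, TSTA3 and NTAN1, also among the 10 largest, have copies on alternate-locus scaffolds, and CUTA alone ran from 1.35 to 82.8 CPM between the WT libraries. Without the first WT library the fall of CUTA went from -5.61 to -0.65 and that of NTAN1 from -3.66 to -2.64, and neither was called.

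There were 103 genes called on opposite sides of WT, 98 of them above WT in untreated KO and below WT with NAC. HHLA1, a gene driven by an endogenous retrovirus promoter in hESCs, was at 30.9 and 33.1 CPM in WT, 52.7 and 52.5 CPM in untreated KO and 9.95 and 9.22 CPM with NAC. Against WT it was 0.72 higher on the log2 scale without NAC, and 1.74 lower with NAC (adjusted p = 0.0050 and 7.4e-06), a value of -1.75 with the trend removed. NES, the intermediate filament nestin of neural progenitors, was at 266 and 226 CPM in WT, 451 and 422 CPM in untreated KO and 126 and 129 CPM with NAC. MAP1B, a microtubule protein of growing axons, MYH9, non-muscle myosin IIA, EP400 and CHD3, chromatin remodellers, and CREBBP, a histone acetyltransferase, had the same order, with -0.98, -1.06, -1.11, -0.92 and -0.96 with NAC. With the trend removed these were -0.74, -0.45, -0.45, -0.42 and -0.31, and 17 of the 98 genes were still lower. RNF213, MDN1 and ARID3A were at -1.16, -1.15 and -0.88, and at -0.56, -0.70 and -0.35 without the trend. The transcripts of the 98 genes had a median length of 8576 bases against 3231 for 15494 tested genes with a known length, and a median GC content of 56.1% against 49.0%.

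**Figure D5:**
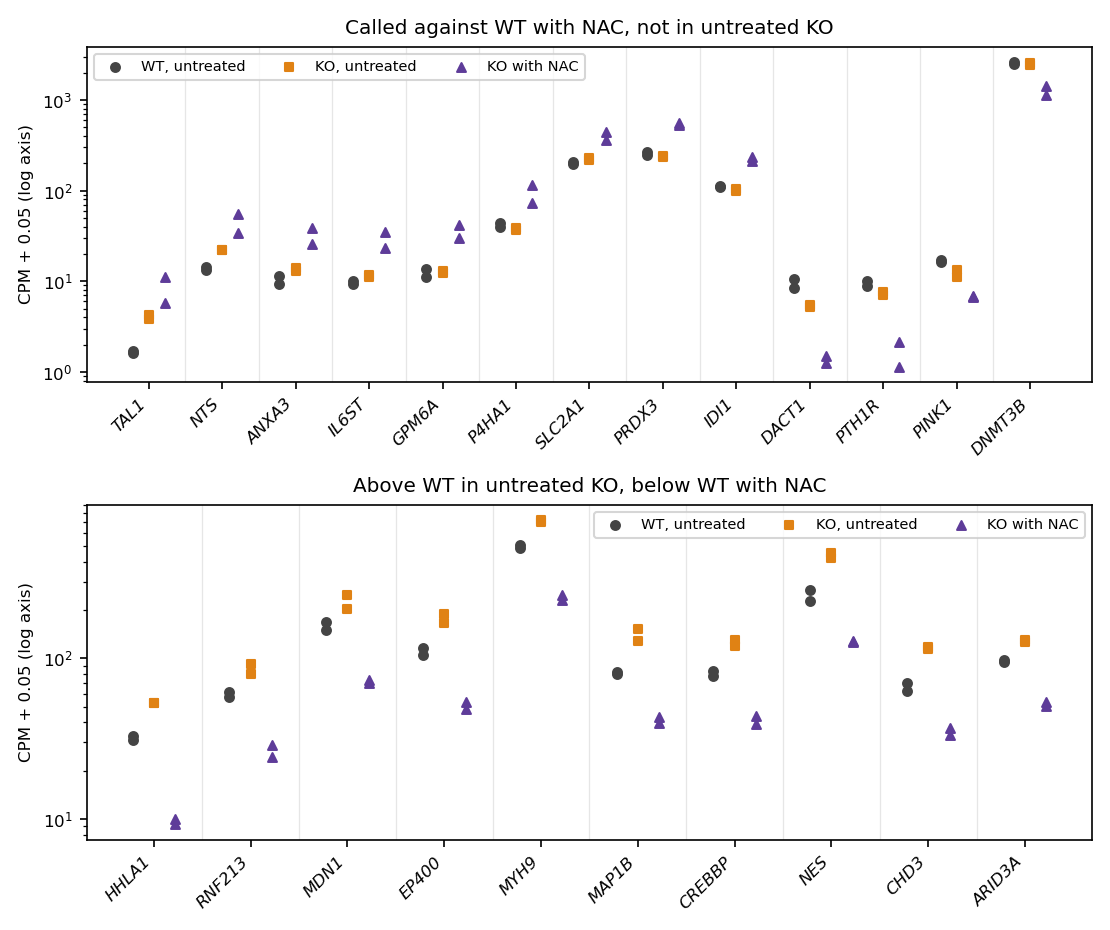
CPM plus 0.05 on a log axis, 1 point per library, circles for untreated WT, squares for untreated KO and triangles for KO with NAC. The upper panel shows genes called against WT with NAC and not in untreated KO, and the lower panel genes above WT in untreated KO and below WT with NAC, such as HHLA1 at 9.95 and 9.22 CPM against 30.9 and 33.1 CPM.

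Of the 312 genes called in untreated KO, 81 were not called with NAC, 62 of them higher and 19 lower in untreated KO, and for 75 of the 81 NAC-treated KO differed from untreated KO towards WT. The 81 were chosen for a call in untreated KO and a missed call with NAC, and the same untreated KO libraries enter again. The choice thus largely fixes the direction of the 75. A missed call does not show that the levels were the same, and 46 of the 81 lay within 0.2 of WT on the log2 scale. AKAP7, an anchor of protein kinase A, was at 58.6 and 59.6 CPM in WT, 34.3 and 31.4 CPM in untreated KO and 58.8 and 55.1 CPM with NAC. APELA, a peptide hormone of hESCs, was at 24.1 and 22.8 CPM in WT, 9.89 and 10.01 CPM in untreated KO and 22.7 and 23.3 CPM with NAC. PCNT, pericentrin of the centrosome, went from 28.4 and 30.6 CPM to 67.7 and 64.7 CPM in untreated KO and was at 25.5 and 32.7 CPM with NAC. With the trend removed, 26 of the 81 were called against WT as in untreated KO, among them AKAP7 (-0.43, adjusted p = 0.00615), APELA (-0.76, adjusted p = 0.00166) and PCNT (0.62, adjusted p = 0.00752). OLIG3, a spinal-cord factor, was uneven, at 4.74 and 5.73 CPM in WT, 19.7 and 21.0 CPM in untreated KO and 3.58 and 12.8 CPM with NAC.

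Some markers of other cells moved in the first NAC library. Of 13 tested mesenchymal and fibroblast markers, 4 were higher than WT with NAC, 1 was lower and 8 were not called (median 0.90). With the trend removed 6 were higher and none was lower (median 0.84). The summed level of the 18 listed markers was 1228 CPM in the first NAC library and 621 CPM in the second. It was 643 to 706 CPM in the WT and untreated KO libraries, and none of the 18 was at 0 in all 6 libraries. COL6A3, a collagen chain, was at 104 CPM in the first NAC library and at 1.04 CPM in the second, with 1.77 and 2.23 CPM in WT. Its log2 fold change of 4.71 was -0.95 without that library (adjusted p = 0.139), and it was not called without either WT library (4.55 and 4.85). IGFBP5, an IGF-binding protein, went from 1.96 to -0.44 in the same way, and its call was also lost without the first WT library (1.89) and without the second. CTSK, a lysosomal protease of matrix-degrading cells, was at 70.1 and 15.8 CPM against 8.99 and 7.54 CPM in WT, and its 2.38 became 0.93 without that library and was still called (adjusted p = 0.000865). The part of such cells in the other differences was not tested. In bulk libraries more cells of a type and more RNA per cell cannot be told apart. None of 4 tested endoderm markers and none of 5 tested trophoblast and amnion markers was called, and the summed levels of the 10 and 13 listed markers ran from 2.05 to 3.08 and from 695 to 863 CPM. Of 11 tested neuroectoderm markers 2 were higher and 3 lower (1 and 2 with the trend removed), and of 8 tested mesoderm markers 2 were lower (2 with the trend removed). OTX2, a forebrain factor, was higher by 0.71 and not called without either WT library (0.71 and 0.68), without the second NAC library (0.30) or without the trend. MIXL1, an early mesendoderm factor, was lower by 1.29, not called without the second WT library (-1.15). The markers GATA4 and AFP stood at -3.21 and -1.19 and GABRP and GATA3 at 0.25 and 0.22, none of them called.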

How the data were processed

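RNA-seq libraries of WA26 hESCs were analysed from a table of counts per gene deposited by the authors, made with trim-galore for trimming, HISAT2 for alignment to hg38 and featureCounts at its default settings, which ignore strand. The submitters' processing notes also list FastQC 0.11.9. WT cells with NAC and WT cells at low oxygen were not analysed here.

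Genes were filtered with filterByExpr (minimum count 10), scaled by TMM and tested with edgeR 4.0.16 (R 4.3.3), quasi-likelihood, with 1 term per group over 8 libraries and Benjamini-Hochberg adjustment over 15916 genes. With 2 libraries a group, the precision is limited, and intervals on counts cover counting error only. Library totals were 31236968 to 41639350 counts. By rule, the genes named were UBQLN1, the 10 largest called changes in each direction (average of at least 1 log2 CPM, groups not overlapping), the 5 largest in each direction that remained or appeared, and the 3 largest called members of each gene list (2 where none was called). Further list members, the larger changes within the stricter set, genes no longer called or called on opposite sides of WT, and the metal response motif were chosen after their values were seen. The members and lists were chosen with earlier results of these data known. A gene was called uncertain where at least 10% of its 31-base words stood on alternate-locus scaffolds. For the trend, a smooth function of transcript length and GC content, fitted with mgcv 1.9.3 per library, was removed. Length and GC content were those of the canonical Ensembl transcript of each gene, which may differ from the transcript expressed. Alternatives were DESeq2 1.42.0, other scalings and filters, a replicate block, and leaving out each library. The scripts were tested on simulated data. Replicate numbers were checked for pairing: the correlations of same-numbered deviations between groups ran from -0.057 to 0.072. With 2 libraries a group, such values cannot exclude that same-numbered libraries share a clone or culture. Results for a few genes that the rules select are not reported here.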

Additional observations from a re-analysis of the deposited data

How the results depend on the processing

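With 2 libraries a group, the counts depended on the libraries used. Leaving out each library in turn gave 1969 to 3485 higher and 1847 to 2985 lower genes (419 to 562 and 529 to 798 by fold over 2 and unadjusted p), 1793 to 2902 higher and 1599 to 2139 lower genes that appeared with NAC, 19 to 167 higher and 29 to 187 lower genes that remained, and 9 to 541 no longer called. With an adjusted p and a fold over 2, 304 were higher and 454 lower, 149 and 245 appeared, 30 and 37 remained and 31 were no longer called. With the trend removed, 1456 were higher (261 by fold) and 1479 lower, 1085 and 974 appeared and 49 were no longer called. DESeq2 gave 257 no longer called and 85 higher and 129 lower that remained, and no filter on low counts gave 410, 144 and 176. With only the libraries compared, 1404 lower genes appeared, 117 lower genes remained and 548 were no longer called, and without copied genes 131 were no longer called. A replicate block gave 3304 higher and 2887 lower genes (365 and 566 by fold), 2870 and 2260 that appeared, 56 and 74 that remained and 98 no longer called. It pairs libraries by a replicate number that the labels tie to no clone or culture. Other scalings and a minimum of 10 counts in every library moved no count by over 1.5 times.

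Directions turned with the trend removed for ATP5MG (-0.20), SDHD (-0.0026), TXN (-0.26), HSPE1 (-0.15), GABRP (-0.038), SREBF2 (0.13), UBQLN4 (0.098) and PCNT (0.62). Leaving out 1 library turned others, over the ranges -0.95 to 5.69 for COL6A3, -0.94 to 2.49 for DDIT4, -0.44 to 2.81 for IGFBP5, -0.22 to 0.45 for LIN28A, -0.21 to 0.15 for PCNT, -0.42 to 0.69 for GABRP and -0.55 to 1.29 for OLIG3, with the NAC libraries at both ends. The ranges were -0.63 to 0.0029 for POU5F1, -0.29 to 0.58 for GATA3 and -0.11 to 0.015 for APELA. The causes were not tested.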

Other observations

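Gene groups not described above are given as values. Of 454 tested zinc-finger genes, 172 were higher and 53 lower than WT with NAC (median log2 fold change 0.40), and 62 and 13 with the trend removed (0.17). With the values after removal of the trend in brackets, 0 higher and 4 lower of 39 replication-dependent histone genes were called (0 and 3), 2 and 4 of 14 p53 targets (0 and 1), and 4 and 1 of 13 shelterin and telomerase genes (1 and 2). Of 17 ATF4 stress-response genes 2 were higher and none was lower (0 and 1), of 10 collagen-modifying enzymes 5 and none (4 and 0), of 12 early-response transcription factors 1 and 1 (1 and 0), and of 10 spinal cord and blood transcription factors 3 and 1 (3 and 0). Their median log2 fold changes, in the same order, were -0.35, -0.04, 0.24, -0.06, 0.32, -0.02 and 0.18, and -0.42, -0.11, 0.07, 0.02, 0.51, 0.13 and 0.34 after removal of the trend. The largest of these were ZNF251, with uncertain counts (127 counts in WT, 2 with NAC), H2BC11, H1-2 and H2BC5 (-1.06, -0.97 and -0.92), BBC3 and MDM2 (-0.83 and 0.41), POT1, NOP10 and DKC1 (0.74, 0.59 and 0.42), DDIT3 and PSAT1 (1.11 and 0.46), PLOD2 (0.60), EGR1 and NR4A1 (0.91 and -0.49), and LMO2 and DBX1 (-1.41 and 0.80). Of these 16, the ones still called without the length and GC trend were ZNF251, H2BC11, H1-2, EGR1 and DBX1. Without either WT library the calls of ZNF251, H2BC11, H2BC5, MDM2, DDIT3, EGR1, NR4A1, LMO2 and DBX1 were lost, and without the second also those of BBC3 (-0.79) and DKC1 (0.30). Without the first NAC library those of H2BC11, H2BC5, DDIT3 and LMO2 were lost, and without the second those of H2BC5, MDM2, EGR1, NR4A1, LMO2 and DBX1.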
